A study of Mus musculus with 16 samples.

Results

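This report describes *Mt1*, *Mt2*, *Nqo1*, *Hmox1*, *Gclc*, *Gclm*, *Gsr*, *Txnrd1*, *Srxn1* and *Gpx3*, the metallothioneins and antioxidant defence genes, in bulk RNA-seq of whole mouse pancreas. The 10 genes were chosen by symbol from the 24411 rows of the raw count table, and all 10 were also in the normalized table and among the 13660 genes that passed the filter on low counts. Libraries came from 16 male C57BL6/J mice aged 12 weeks, 1 library per mouse, in 3 groups: 5 WT mice on control water, 7 leptin-deficient Lep(ob/ob) mice on control water, and 4 Lep(ob/ob) mice given a cholecystokinin (CCK) receptor antagonist (CCKRi) in the drinking water. Water was given for 6 weeks, from 6 weeks of age, and the antagonist was either proglumide (2 mice, 0.1 mg/mL) or lorglumide (2 mice, 0.05 mg/mL). Leptin deficiency affects the whole animal, so the model is not limited to the pancreas. The labels place 3 WT and 4 untreated Lep(ob/ob) mice in batch A, and 2 WT, 3 untreated and all 4 CCKRi-treated Lep(ob/ob) mice in batch B. The labels say that WT mice were bred in house and Lep(ob/ob) mice purchased, whereas the study's methods say that both were purchased.

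Metallothioneins are small cysteine-rich proteins that bind zinc and copper. Their genes are switched on by the metal-sensing factor MTF1 at metal response elements, and also by glucocorticoids. In the pancreas, acinar cells take up and secrete zinc, and beta cells store it with insulin. Most of the other genes are classical targets of NRF2 (gene *Nfe2l2*), a factor held back by KEAP1 that binds antioxidant response elements. *Gclc* and *Gclm* encode the catalytic and modifier subunits of glutamate-cysteine ligase, the enzyme that controls the rate of glutathione synthesis, and *Gsr* encodes the reductase that regenerates glutathione. *Txnrd1* reduces thioredoxin, *Srxn1* repairs over-oxidized peroxiredoxins, *Nqo1* reduces quinones, *Hmox1* degrades haem, and *Gpx3* encodes a secreted selenium-containing glutathione peroxidase.

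Depth was greater in batch A, with 19.2 to 34.5 M counts a library, than in batch B, with 9.87 to 15.9 M. The 50 most counted genes held 79.2% to 85% of a batch A library and 49.3% to 77.1% of a batch B library. All 9 acinar markers were detected in every mouse, with a mean log2 CPM (counts per M counts) of 11.5 to 13.6 in the WT and untreated Lep(ob/ob) mice and 11.1 to 12.3 in the treated mice. The treated mice are all of batch B, where the WT and untreated mice had 11.5 to 12.7. Lep(ob/ob) mice weighed 48.6 to 57.3 g and WT mice 24.0 to 32.3 g. The *Lep* transcript ran from 17.5 to 64.7 normalized counts in WT, from 254 to 8655 in untreated and from 933 to 8797 in treated Lep(ob/ob) mice. A transcript level does not check an allele that stops the protein. All 8 adipocyte markers were detected in every mouse, and their mean was highest in untreated Lep(ob/ob) mice 463, 461 and 417 and CCKRi-treated mouse 69, at a mean log2 CPM of 6.95, 5.35, 5.44 and 6.33, against 2.55 to 4.61 in the other 12 mice. The list went both ways: 6 of the 8 had a positive log2 fold change in untreated mice against WT, none past the threshold, while *Cfd* fell by 3.15 (edgeR adjusted p = 0.00806), with 308.3 to 1327 normalized counts in WT mice and between 14.0 and 425.8 in untreated mice, and *Retn* stood at -0.10. In whole tissue, fewer cells of a type and less RNA per cell cannot be told apart.

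The metallothioneins were on average the most abundant of these transcripts. Levels between genes were compared as normalized counts per kb of 1 principal transcript per gene. *Mt1* averaged 5533 ± 3865 per kb (SD, n = 16 mice) and *Mt2* 3311 ± 2906. *Gpx3* followed with 560.9 ± 148.8 per kb. The next genes were *Gclc* with 133.0 ± 53.3 per kb, *Txnrd1* with 127.3 ± 23.9 and *Gsr* with 97.1 ± 18.6, whose ranges overlapped. *Hmox1* averaged 64.7 ± 52.2 per kb, *Gclm* 53.6 ± 10.0 and *Srxn1* 45.5 ± 13.1, again with overlapping ranges. These orders are over all mice and differed by group: in WT mice *Gclc* (73.7 ± 8.83 per kb, n = 5) was below *Txnrd1* (121.9 ± 19.7) and *Gsr* (100.3 ± 13.1), and in treated mice (183.5 ± 27.0, n = 4) above both (103.0 ± 10.1 and 77.3 ± 16.5). *Hmox1* was below *Gclm* in WT mice (38.5 ± 12.5 against 54.8 ± 11.7 per kb). *Nqo1* was lowest, with 9.64 ± 4.83 per kb, and rested on 4 to 47 reads per mouse.

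Obese and lean pancreas differed in 1 of the 10 genes. *Gclc* exceeded its WT level 1.97-fold in Lep(ob/ob) mice (95% CI 1.496 to 2.595; edgeR adjusted p = 0.00344), which is 1 call in 10, while 9.07% of all genes tested passed the same threshold. Log2 fold changes were positive for 9 of the 10 genes, the exception being *Nqo1*, and 5 genes had an unadjusted p under 0.05 (*Gclc*, *Srxn1*, *Gpx3*, *Hmox1* and *Txnrd1*), as had 23.8% of all genes. The median log2 fold change was 0.31 over the 10 genes and -0.02 over all genes tested.

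CCKRi treatment was followed by no change past the threshold in any of the 10 genes by edgeR relative to untreated Lep(ob/ob) mice, where 0.0586% of all genes tested passed. Log2 fold changes were negative for 8 of the 10, with a median of -0.35 against -0.01 over all genes. *Txnrd1* and *Gsr* had an unadjusted p under 0.05, as had 14.3% of all genes. DESeq2 with batch called 0 of the 10 and 0.674% of all genes, and DESeq2 without batch called 3 of the 10, all lower, and 18.4% of all genes. Compared with WT, CCKRi-treated mice again differed in *Gclc* alone, 2.57-fold higher (95% CI 1.81 to 3.64; edgeR adjusted p = 0.00223), beside 5.57% of all genes. These comparisons share samples, so their values are given side by side and are not independent.

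**Figure D1:**
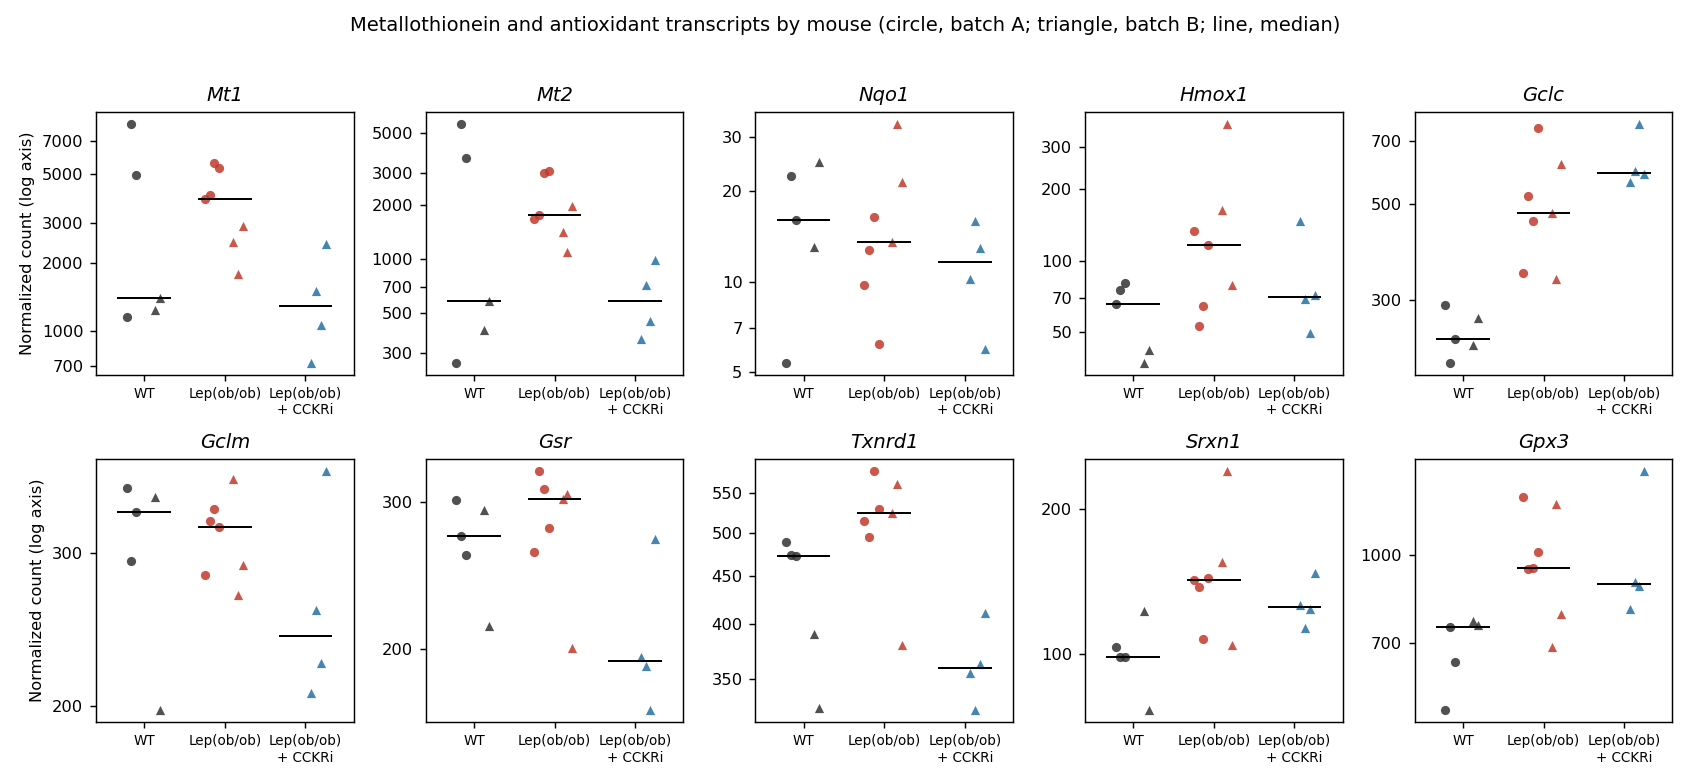
Normalized counts (log axis) of the 10 genes in each mouse, by group; circles are batch A, triangles batch B, and lines group medians. *Gclc* separates WT from both Lep(ob/ob) groups, *Mt1* and *Mt2* are widely spread in WT, and the treated mice lie below the untreated ones for *Mt2*.

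**Figure D2:**
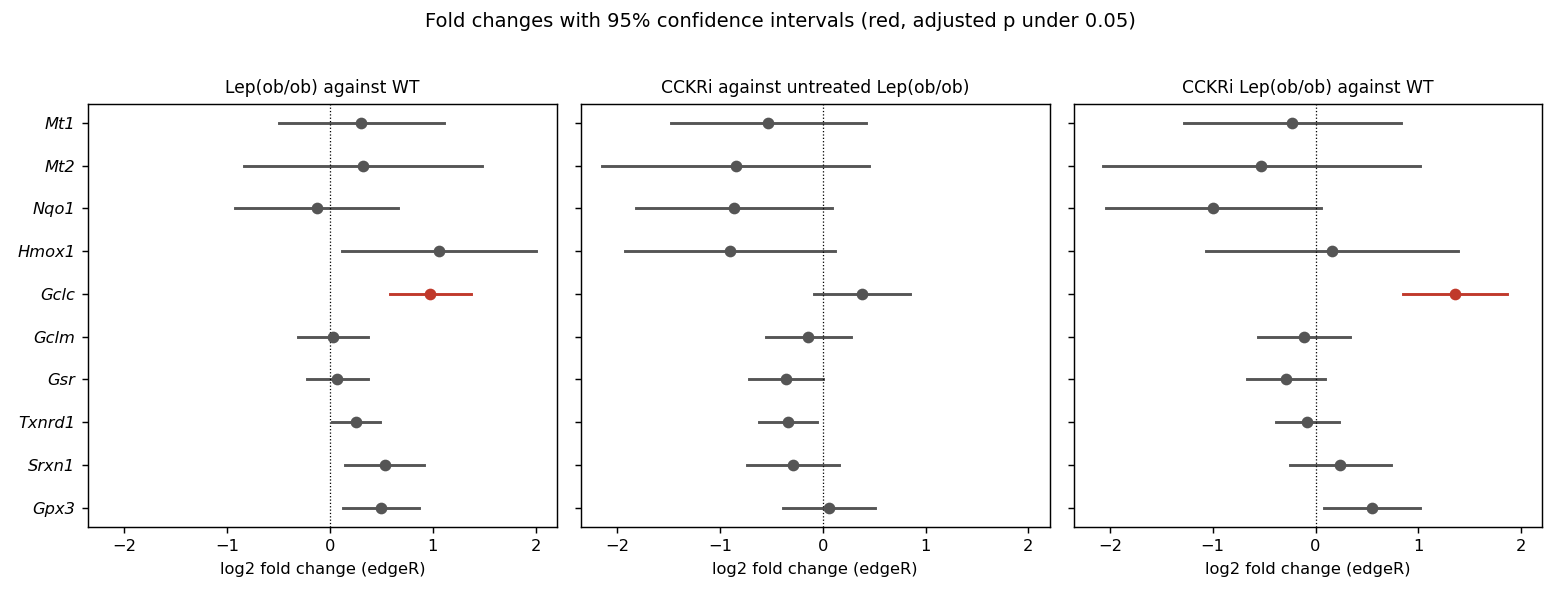
Fitted log2 fold changes (points) with 95% confidence intervals (lines) from edgeR for the 3 comparisons. Red marks an adjusted p under 0.05, which *Gclc* reached against WT at 0.98 in untreated and 1.36 in treated Lep(ob/ob) mice.

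*Mt1* (chr8:94179082-94180327, plus strand, GRCm38) and *Mt2* (chr8:94172664-94173568, plus strand) are neighbours on chromosome 8, each with 3 exons in its principal transcript. Their promoter windows are shown because the levels of these genes varied together across mice. The windows are RefSeq's, build GRCm38.p6, plus strand, 250 bases before to 50 bases after the annotated start, for *Mt1* chr8:94178839-94179138 and for *Mt2* chr8:94172368-94172667, and capitals mark the core of the metal response element, TGCACNC or TGCGCNC, on either strand.
Mt1: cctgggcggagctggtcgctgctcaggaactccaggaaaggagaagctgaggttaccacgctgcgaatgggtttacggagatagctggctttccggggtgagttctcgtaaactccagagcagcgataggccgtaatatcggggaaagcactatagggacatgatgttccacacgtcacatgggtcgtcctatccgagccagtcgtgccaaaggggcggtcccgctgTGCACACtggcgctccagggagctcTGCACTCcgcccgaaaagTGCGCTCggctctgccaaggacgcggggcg
Mt2: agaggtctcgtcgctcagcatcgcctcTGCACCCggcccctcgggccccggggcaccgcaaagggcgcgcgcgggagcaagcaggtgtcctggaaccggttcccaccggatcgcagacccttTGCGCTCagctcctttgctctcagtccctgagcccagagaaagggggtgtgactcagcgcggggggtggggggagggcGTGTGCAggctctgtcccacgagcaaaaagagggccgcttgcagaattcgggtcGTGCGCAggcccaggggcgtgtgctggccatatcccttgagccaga
*Mt2* held 4 matches and *Mt1* 3. Of these, 2 *Mt1* matches lay after the annotated start, at positions 3 and 21, and 1 *Mt2* match at position 5. A match occurred in 25.7% of the 32851 RefSeq windows of this length, with 3 or more in 1.97% and 4 or more in 0.517%. Windows were found for 7 of the 10 genes, and *Hmox1*, *Gclc* and *Gsr* had none and were not searched. Among the genes with windows other than *Mt1* and *Mt2*, *Gclm* held 3 matches and *Srxn1* 1. For the antioxidant response element, searched as TGACNNNGC or TGAGNNNGC on both strands, *Srxn1* held 3 matches (GCCGACTCA, TGAGTCAGC and GCTAGGTCA), *Gclm* 1 (GCACCGTCA), *Mt2* 1 (TGACTCAGC) and 1 of the 3 *Txnrd1* windows 1 (GCTTTGTCA). A match occurred in 27.8% of all windows and 3 or more in 0.63%. The *Gclm* match overlapped one of its metal response element matches. These are matches of letters and do not show binding.

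*Mt1* and *Mt2* were spread widely within the WT group. *Mt1* stood at 1150, 8288 and 4935 normalized counts in WT mice 5489, 5492 and 5494 of batch A and at 1234 and 1402 in WT mice 58 and 59 of batch B. *Mt2* followed the same order in the high mice, with 266.5, 5619 and 3630 in batch A and 405 and 586 in batch B. The spread from lowest to highest WT mouse was 7.21-fold for *Mt1* and 21.1-fold for *Mt2*, and 2 WT mice, 5492 and 5494, carried the high values of both genes. These were also the 2 WT mice with the highest adipocyte marker levels (mean log2 CPM 4.54 and 4.34, against 2.55 to 3.503 in the other 3), and with the highest fibroblast (5.31 and 5.25) and endothelial (4.40 and 4.47) marker levels. Over all 16 mice *Mt2* correlated with these scores at -0.02, 0.27 and 0.35. The part of tissue composition in these values was not tested.

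Untreated Lep(ob/ob) mice had 1785 to 5586 normalized counts of *Mt1* (median 3838, n = 7) and 1100 to 3095 of *Mt2* (median 1763). All 7 lay inside the WT range for both genes. The fitted difference from WT was 0.30 on the log2 scale for *Mt1* (SE 0.38, edgeR adjusted p = 0.677) and 0.32 for *Mt2* (SE 0.55, adjusted p = 0.772), with 95% intervals of -0.50 to 1.11 and -0.84 to 1.48. Batches differed in sign. In batch A the log2 difference was -0.01 for *Mt1* and -0.39 for *Mt2*, and in batch B it was 0.83 (adjusted p = 0.364) and 1.56 (adjusted p = 0.188), with every Lep(ob/ob) mouse of batch B above both WT mice. Such a separation, higher in the 3 Lep(ob/ob) mice than in the 2 WT mice of batch B, occurred in 17.5% of all genes. The test of the difference between batches gave 1.97 on the log2 scale for *Mt2* (edgeR adjusted p = 0.45) and 0.86 for *Mt1* (adjusted p = 0.598).

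CCKRi-treated mice had the lowest *Mt2* levels among the obese mice, while their *Mt1* levels overlapped those of untreated mice. *Mt2* was at 361 and 718 normalized counts in the 2 proglumide mice and at 457 and 987 in the 2 lorglumide mice. Every treated mouse was thus below every untreated Lep(ob/ob) mouse, a separation that *Mt2* alone of the 10 genes showed and that occurred in 6.07% of all genes, in either direction. *Mt1* was at 721 and 1508 with proglumide and at 1064 and 2440 with lorglumide, the highest of these above untreated mouse 463 at 1785. The fitted log2 differences, which allow for batch, were -0.85 for *Mt2* (SE 0.62, edgeR adjusted p = 0.516) and -0.53 for *Mt1* (SE 0.45, adjusted p = 0.575), so neither passed the test. Single mice moved both, *Mt2* from -1.147 without treated mouse 76 to -0.53 without untreated mouse 464, and *Mt1* from -0.912 without treated mouse 76 to -0.295 without treated mouse 69. Within batch B the *Mt2* difference was -1.20 (adjusted p = 0.327). DESeq2 without batch, which sets the treated mice of batch B against untreated mice of both batches, gave -1.37 for *Mt1* (adjusted p = 0.0413). Untreated batch B mice held less *Mt1* (1785 to 2919) than untreated batch A mice (3838 to 5586). Between treated and untreated obese mice the median log2 change of the 9 acinar markers was -0.51, with 2 of them higher and none past the threshold. The median was -1.18 for 8 macrophage markers and -0.87 for 6 fibroblast markers, with 0 higher and none past the threshold. *Mt1* correlated with the acinar score at r = 0.71 over 16 mice and *Mt2* at 0.54. Acinar scores ran from 12.7 to 13.6 in batch A and from 11.1 to 12.7 in batch B. Batch was not removed from these correlations. The part of acinar RNA in the metallothionein levels was not tested.

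Both genes varied together from mouse to mouse. The correlation of their log2 CPM was r = 0.96 over the 16 mice, and 0.96 after the mean of each group within each batch was subtracted, the highest for any pair of the 10 genes. All points share library and depth. The ratio of *Mt1* to *Mt2* was 2.51 ± 1.22 (SD, n = 5) in WT, 1.85 ± 0.31 (n = 7) in untreated and 2.23 ± 0.21 (n = 4) in treated Lep(ob/ob) mice, and was 4.31 in WT mouse 5489, where *Mt2* was lowest.

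**Figure D3:**
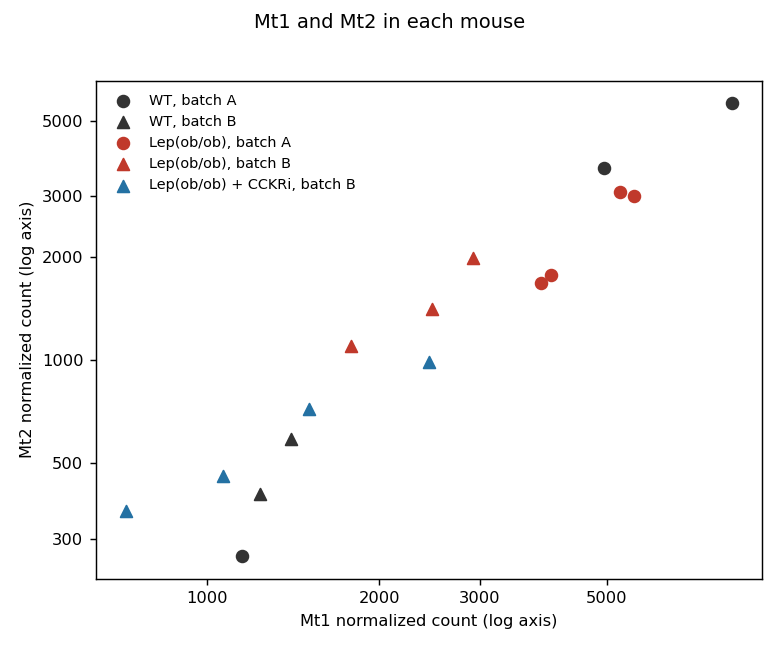
*Mt2* against *Mt1* in each of the 16 mice, both as normalized counts on log axes; colour is the group and shape the batch. The points lie along 1 line (r = 0.96 on log2 CPM), with WT mice 5492 and 5494 at the high end and WT mouse 5489 at the lowest *Mt2*.

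*Gclc* (chr9:77754535-77794485, plus strand, 16 exons), the catalytic subunit gene, gave the clearest difference between lean and obese pancreas. WT mice had 292, 215 and 244.8 normalized counts in batch A and 237 and 272.5 in batch B, 252 ± 30.2 (SD, n = 5). Untreated Lep(ob/ob) mice had 336 to 748 (median 478), 501 ± 147 (n = 7). CCKRi-treated mice had 564 and 597 with proglumide and 765 and 586 with lorglumide, 628 ± 92.4 (n = 4). Every obese mouse, treated or not, was above every WT mouse, a separation upward found in 3.07% of all genes for untreated against WT and in 6.16% for treated against WT. The log2 fold change against WT was 0.98 (SE 0.19) untreated and 1.36 (SE 0.24) treated. Treated and untreated mice overlapped, with a log2 difference of 0.38 (95% CI -0.09 to 0.85, edgeR adjusted p = 0.427). When each mouse was left out in turn, this difference ran from 0.216 without untreated mouse 463 to 0.512 without untreated mouse 464. With the macrophage marker score as a covariate it was 0.090.

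Both batches showed the *Gclc* difference at similar size. It was 1.09 on the log2 scale in batch A (SE 0.23, edgeR adjusted p = 0.0152) and 0.88 in batch B (SE 0.29, adjusted p = 0.211). Lep(ob/ob) and WT mice did not overlap in either batch. Such a separation upward occurred in 11.2% of all genes in batch A and 17.5% in batch B. The edgeR test of the difference between batches gave -0.19 (adjusted p = 0.849). Leaving out each mouse in turn kept the call in all 12 fits, between 0.84 and 1.07. Beta cell markers moved with it: 5 of 8 (*Ins1*, *Ins2*, *Iapp*, *G6pc2* and *Nkx6-1*) rose in untreated Lep(ob/ob) mice, the mean log2 CPM of the 8 ran from 4.39 to 4.78 in WT, 4.70 to 7.06 in untreated and 4.22 to 6.86 in treated mice, and no marker was at 0. *Gclc* correlated with this score at r = 0.65 over 16 mice, and at -0.74 with the score of 5 endothelial markers, which ran from 4.08 to 4.47 in WT, 3.90 to 4.64 in untreated and 3.86 to 3.94 in treated mice, with 0 of the 5 past the threshold in edgeR. With the beta cell score as a covariate the log2 fold change was 0.65 (adjusted p = 0.0511) untreated and 1.02 treated. In untreated mouse 463 and treated mouse 69, *Gclc* was at 336 and 564 normalized counts, both above the highest WT mouse and each the lowest of its group. Their beta cell scores, 4.70 and 4.22, were also the lowest of their groups. So were their acinar scores (11.53 and 11.09), while their adipocyte scores (6.95 and 6.33) were the highest. The part of tissue composition in the *Gclc* levels was not tested.

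*Gclm* (chr3:122245557-122270732, plus strand, 7 exons), the modifier subunit gene, did not separate the groups. It ran from 197.9 to 357 normalized counts in WT, from 268 to 366 in untreated and from 207 to 373 in treated Lep(ob/ob) mice. The log2 fold change against WT was 0.03 untreated (95% CI -0.31 to 0.37, edgeR adjusted p = 0.943) and -0.11 treated (adjusted p = 0.848). Its sign against WT depended on single mice. The transcripts of *Gclm* share 3.92% of their 50-base words with other genes, and no other member shares any. Since one subunit gene was higher and the other was not, the ratio of *Gclc* to *Gclm* normalized counts was 0.868 ± 0.29 (SD, n = 5) in WT, 1.6 ± 0.452 (n = 7) in untreated and 2.5 ± 0.771 (n = 4) in treated mice. The WT range of the ratio, 0.679 to 1.38, reached into the untreated range of 1.23 to 2.33, and WT mouse 59 gave the highest WT value.

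**Figure D4:**
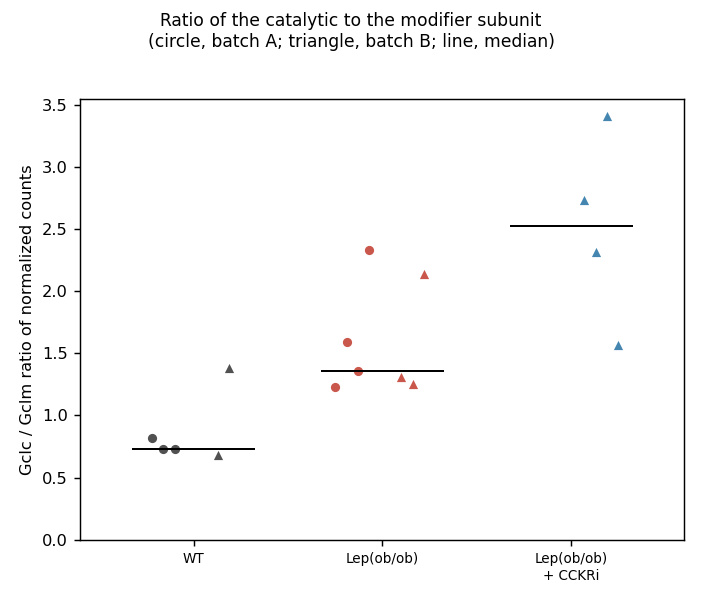
Ratio of *Gclc* to *Gclm* normalized counts in each mouse by group; circles are batch A, triangles batch B, and lines medians. Of the WT mice, 4 lie between 0.679 and 0.819 and mouse 59 at 1.38, and the treated mice lie between 1.57 and 3.41.

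*Gsr* (chr8:33652523-33698163, plus strand, 13 exons), which recycles glutathione, was at 213 to 301.5 normalized counts in WT and 200.5 to 326 in the untreated obese group, a log2 difference of 0.07 (95% CI -0.22 to 0.37, edgeR adjusted p = 0.798). Treated mice had 196 and 191 with proglumide and 169 and 271 with lorglumide. Untreated mouse 464 and WT mouse 59, both of batch B, were as low as 200.5 and 213. The log2 difference between treated and untreated mice was -0.36 (SE 0.17, edgeR unadjusted p = 0.0496, adjusted p = 0.35), and DESeq2 without batch gave -0.46 (adjusted p = 0.0357). The fit without batch sets treated mice of batch B against untreated mice of both batches, and it called 18.4% of all genes.

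*Hmox1* (chr8:75093621-75100589, plus strand, 5 exons), the haem-degrading enzyme, had the largest fitted difference of the 10 genes between untreated Lep(ob/ob) and WT mice and also the widest spread, highest over lowest, among the untreated mice. WT mice had 66.0, 75.3 and 80.9 normalized counts in batch A and 37.3 and 42.2 in batch B. Untreated Lep(ob/ob) mice ran from 53.3 to 374 (median 117), and 3 of the 7, mice 441 and 447 of batch A and mouse 464 of batch B, lay inside the WT range of both batches together. Its fitted log2 fold change was 1.06 (SE 0.45, edgeR adjusted p = 0.156), and 0.76 without mouse 463. Batch A gave 0.38 (adjusted p = 0.572) and batch B 2.31 (adjusted p = 0.183), a difference of 1.96 between batches (unadjusted p = 0.0174, adjusted p = 0.391). In the treated group, *Hmox1* was at 147 and 68.9 with proglumide and at 49.6 and 71.5 with lorglumide. Against untreated mice the log2 difference was -0.90 (SE 0.49, adjusted p = 0.397), and -0.16 without untreated mouse 463. Treated mice differed from WT by 0.158 (SE 0.58, edgeR adjusted p = 0.931).

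High *Hmox1* went with macrophage and adipocyte markers. The 4 obese mice with the highest *Hmox1* were 463, 461, 69 and 417, the same 4 with the highest adipocyte and macrophage scores. All 8 macrophage markers were detected in every mouse, and their mean log2 CPM ran from 3.67 to 4.16 in WT, 3.01 to 6.16 in untreated and 3.39 to 4.76 in treated mice. *Hmox1* correlated with the macrophage score at r = 0.80, with the adipocyte score at 0.79, with the fibroblast score at 0.73 and with the duct score at -0.87 over 16 mice. With the macrophage score as a covariate, *Hmox1* exceeded WT by 0.68 on the log2 scale in untreated mice (edgeR adjusted p = 0.0144). In treated mice it then exceeded WT by 0.91 (adjusted p = 0.0179), against 0.158 (adjusted p = 0.931) without a covariate. The difference between treated and untreated mice turned to 0.24 (adjusted p = 0.68). Leaving out the 4 obese mice of highest adipocyte score also removes the highest *Hmox1* values, so a smaller difference follows from the choice. The untreated difference from WT was then 0.35, and with all mice and the adipocyte score as a covariate 0.596 (edgeR adjusted p = 0.0966). With the beta cell score as a covariate it was 2.33 (adjusted p = 0.000292), and 1.65 for treated mice against WT (adjusted p = 0.0355).

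**Figure D5:**
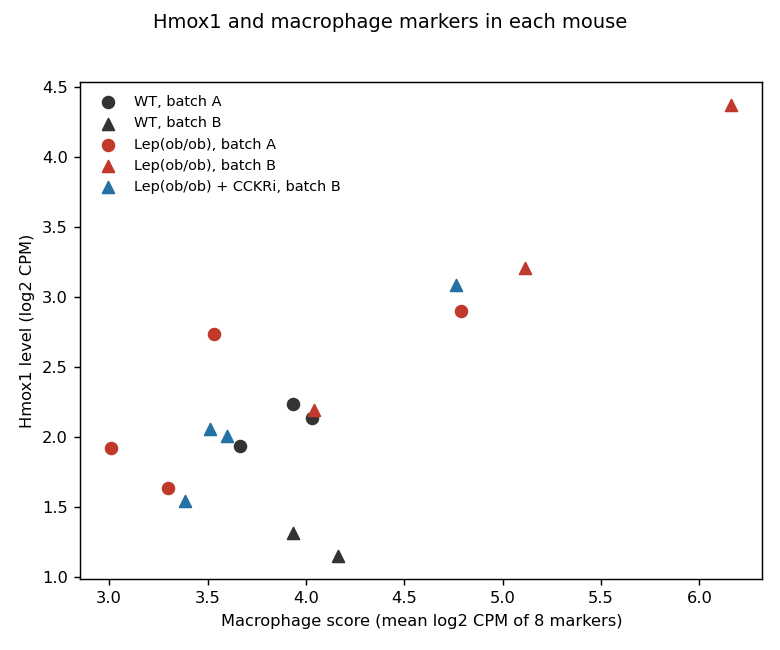
*Hmox1* (log2 CPM) against the mean log2 CPM of 8 macrophage markers in each of the 16 mice; colour is the group and shape the batch. The points rise together (r = 0.80), untreated mouse 463 lies far to the upper right, and the 2 WT mice of batch B are lowest for *Hmox1*.

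*Nqo1* (chr8:107388225-107403206, minus strand, 6 exons), the quinone reductase often used as an NRF2 readout, was near the limit of these libraries. WT mice had 5.38, 22.4 and 15.99 normalized counts in batch A and 12.97 and 24.9 in batch B. Untreated Lep(ob/ob) mice had 6.23 to 33.2 (median 13.5), and treated mice 10.2, 15.8, 12.9 and 5.96. All 3 groups overlapped. The log2 difference was -0.13 for untreated mice against WT (95% CI -0.92 to 0.66, edgeR adjusted p = 0.875) and -0.865 for treated against untreated mice (95% CI -1.82 to 0.09, adjusted p = 0.385). Leaving out single mice moved the second value from -1.071 without treated mouse 72 to -0.542 without untreated mouse 463. Differences inside these intervals are compatible with the data.

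*Txnrd1* (chr10:82833951-82897712, plus strand, 14 exons), thioredoxin reductase, varied little. In WT mice it was at 489, 473.0 and 472.7 normalized counts in batch A and at 391 and 327 in batch B. Untreated Lep(ob/ob) mice had 381 to 580 (median 524), with all 4 of batch A above the 3 WT mice of that batch, as in 11.2% of all genes. Against WT the log2 difference was 0.26 (SE 0.11, edgeR adjusted p = 0.172). Treated mice had 356 and 325 with proglumide and 363 and 411 with lorglumide, below 6 of the 7 untreated mice but not below mouse 464 in every case. That difference was -0.34 (SE 0.13, edgeR unadjusted p = 0.0228, adjusted p = 0.303), and DESeq2 without batch gave -0.50 (adjusted p = 0.0109). The fit without batch sets treated mice of batch B against untreated mice of both batches, and it called 18.4% of all genes. Among WT mice *Txnrd1* averaged 478 normalized counts in batch A and 359 in batch B, so batch and treatment are mixed in that value.

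*Srxn1* (chr2:152105516-152111376, plus strand, 2 exons), sulfiredoxin, was at 104, 98.8 and 98.9 normalized counts in WT mice of batch A and at 123 and 76.8 in batch B. In untreated Lep(ob/ob) mice it ran from 104.8 to 240 (median 142.5), highest in mouse 463, and in the treated mice it was 127, 114, 124 and 148. The untreated mice were 0.53 above WT on the log2 scale (SE 0.18, edgeR adjusted p = 0.0799), from 0.399 without WT mouse 59 (adjusted p = 0.239) to 0.64 without untreated mouse 464 (adjusted p = 0.0237) when each mouse was left out in turn. Without the 4 obese mice of highest adipocyte score it was 0.298 (adjusted p = 0.279), and with the beta cell score as a covariate 0.692 (adjusted p = 0.0373). The fit without these 4 mice drops mice 463 and 461, the highest untreated mice for *Srxn1*, so a smaller value follows from the choice. All 4 Lep(ob/ob) mice of batch A were above its 3 WT mice, as were those mice for *Gclc*, *Txnrd1* and *Gpx3*, making 4 of the 10 genes where 11.2% of all genes separate upward in that batch. In batch B 4 genes also separated upward (*Mt1*, *Mt2*, *Hmox1* and *Gclc*), where 17.5% of all genes did, and *Gclc* was common to both batches. The *Srxn1* log2 difference between treated and untreated mice was -0.29 (adjusted p = 0.523), from -0.465 without untreated mouse 464 to -0.017 without untreated mouse 463. *Srxn1* and *Hmox1* correlated at r = 0.73 over the 16 mice, and *Srxn1* correlated with the macrophage score at 0.59 and the duct score at -0.79.

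*Gpx3* (chr11:54902453-54910377, plus strand, 5 exons), the secreted peroxidase, was at 533, 746 and 647.5 normalized counts in WT mice of batch A and at 765 and 751.5 in batch B. Untreated Lep(ob/ob) mice ran from 688 to 1264 (median 949), and only mouse 461 was inside the WT range. Treated mice had 802, 896, 882 and 1405, all above the highest WT mouse, as in 6.16% of all genes. The log2 fold change against WT was 0.50 untreated (SE 0.17, edgeR adjusted p = 0.09) and 0.55 treated (SE 0.22, adjusted p = 0.196), and neither passed the threshold over all mice. Single mice moved the treated value from 0.342 without treated mouse 76 to 0.661 without treated mouse 69. Batch A alone gave 0.75 (adjusted p = 0.0202) and batch B alone 0.20 (adjusted p = 0.742), with a difference between batches of -0.52 (adjusted p = 0.481). Treated and untreated mice differed by 0.06 (95% CI -0.39 to 0.50, adjusted p = 0.915). When each mouse was left out in turn, the log2 fold change of *Gpx3* between Lep(ob/ob) and WT mice ran from 0.405 without WT mouse 5489 (edgeR adjusted p = 0.216) to 0.583 without untreated mouse 464, and it passed the threshold only without untreated mouse 461 (0.578, adjusted p = 0.0441). *Gpx3* correlated with the beta cell score at r = 0.62, and with that score as a covariate its log2 fold change against WT was 0.273 untreated (adjusted p = 0.368) and 0.282 treated (adjusted p = 0.549).

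Among the 10 genes, the reductase genes *Gsr* and *Txnrd1* varied together, and so did *Gclm* and *Gsr*. *Gsr* and *Txnrd1* correlated at r = 0.81 over 16 mice and at 0.80 within groups and batches, *Gclm* and *Gsr* at 0.75 and 0.71. *Gclc* did not follow its partner subunit, at -0.12 with *Gclm* and 0.09 within groups and batches. *Gclc* and *Hmox1* correlated at 0.09 over all mice and at -0.56 within groups and batches. These correlations are descriptions over points that share library depth and tissue composition.

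Outside the 10 genes, the closest patterns over 16 mice, among 10856 genes with a mean log2 CPM of at least 1, were those of *Slc30a2*, a zinc exporter, for *Mt1* (r = 0.91; 0.86 within groups and batches) and *Rhobtb2* for *Mt2* (0.84; 0.72). *Hmox1* was closest to *Pgd*, an NADPH-producing enzyme of the pentose phosphate pathway (0.95; 0.94), *Gpnmb*, known from lipid-laden macrophages (0.95; 0.92), and *Dram1* (0.93; 0.89). *Gclc* was closest to *Inpp5f* (0.92; 0.72), *Rgmb* (0.91; 0.73) and the clock repressor gene *Cry2* (0.91; 0.54). For *Txnrd1* the closest gene was *Tcn2* (0.96; 0.90), for *Gsr* *Lmbrd1* (0.92; 0.93), for *Gclm* *Hsd17b13* (0.91; 0.91), for *Srxn1* *P3h1* (0.89; 0.82), for *Gpx3* *Prune2* (0.89; 0.84) and for *Nqo1* *Ajuba* (0.75; 0.75). The values for *Gclc* fell most when group and batch means were removed.

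Of the wider pathways, 121 genes in 10 lists were examined, of which 114 were tested. The lists were written with earlier results of these data known, so their shares are descriptions. Between Lep(ob/ob) and WT mice 10 rose and 5 fell, 13.2% of those tested, against 9.07% of all genes. Of these calls, 6 were in the list of glucocorticoid targets, and the other 9 lists held 9 calls among 104 genes, 8.65%. By edgeR 0 of the 114 passed between treated and untreated Lep(ob/ob) mice, beside 0.0586% of all genes. An unadjusted p under 0.05 was found for 14 of the 114, beside 14.3% of all genes, and DESeq2 with batch called 0, beside 0.674%. Between treated and WT mice 8 rose and 3 fell, 9.65% against 5.57% of all genes, with 7 of these 11 calls among the 104 genes (6.73%).

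Among genes that control metals and NRF2, 1 of 12 and 1 of 11 tested passed between Lep(ob/ob) and WT mice by edgeR, where 9.07% of all genes did. In the list of zinc handling, *Slc39a5*, a zinc importer of acinar cells, fell by 0.68 on the log2 scale in Lep(ob/ob) mice (SE 0.19, edgeR adjusted p = 0.03), from 3430 ± 1261 (SD, n = 5) to 2124 ± 933 (n = 7) normalized counts. *Slc30a8*, the zinc transporter of insulin granules, was 1.82 higher in treated than in WT mice (adjusted p = 0.0431) and 1.29 higher in untreated than in WT mice (adjusted p = 0.0624). *Mtf1* itself differed by 0.18 between untreated and WT mice (adjusted p = 0.488). In the list of NRF2 regulators, *Maff*, a small MAF partner of NRF2, rose by 1.49 (SE 0.29, adjusted p = 0.00391), from 19.7 ± 7.03 to 56.7 ± 19.8 normalized counts, and by 1.53 in treated mice against WT (adjusted p = 0.0165). *Nfe2l2* differed by 0.21 (adjusted p = 0.382) and *Keap1* by 0.01 (adjusted p = 0.977).

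Between Lep(ob/ob) and WT mice edgeR called 1 of 20 glutathione genes, 1 of 14 thioredoxin and peroxiredoxin genes and 1 of 9 genes of superoxide dismutases, catalase and glutathione peroxidases, beside 9.07% of all genes. DESeq2 with batch called 1, 4 and 2 of these and 12.4% of all genes, and 5, 6 and 3 had an unadjusted p under 0.05 in edgeR, as had 23.8% of all genes. *Abcc4*, a transporter of conjugates, was the glutathione gene past the threshold, with 0.61 in Lep(ob/ob) against WT (SE 0.17, edgeR adjusted p = 0.0377). *Txn1*, thioredoxin, fell by 0.74 (SE 0.10, adjusted p = 0.000373), with 966 to 1170 normalized counts in WT, 551 to 711 in untreated and 554 to 737 in treated mice. *Gpx1*, the main cytosolic glutathione peroxidase, fell by 0.57 (SE 0.13, adjusted p = 0.0131), from 1422 ± 110 to 990 ± 243 normalized counts, and stood 0.77 lower in treated mice than in WT (adjusted p = 0.0133). *Sesn1* was 1.003 higher in treated mice than in WT (adjusted p = 0.0267). Of 7 NADPH-supply genes and 11 selenoprotein genes, 0 passed by edgeR in any comparison. Between Lep(ob/ob) and WT mice 1 of the 7 and 6 of the 11 had an unadjusted p under 0.05, and DESeq2 with batch called 0 and 1, beside the same shares of all genes. The 7 had a median log2 fold change of 0.60 between Lep(ob/ob) and WT mice.

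For haem, iron and quinone genes, *Cp*, ceruloplasmin, fell by 0.45 in Lep(ob/ob) mice (SE 0.12, edgeR adjusted p = 0.0237) and *Tfrc*, the transferrin receptor, by 0.54 (SE 0.14, adjusted p = 0.0262), 2 of 9 haem and iron genes tested, beside 9.07% of all genes. *Por*, the reductase that feeds electrons to cytochromes P450, rose by 1.20 (SE 0.26, adjusted p = 0.00818), and *Akr1c13* by 0.77 (SE 0.18, adjusted p = 0.0115), 2 of 11 quinone and aldehyde genes tested. *Por* was at 370 ± 115 normalized counts in the treated mice, 604 ± 220 in the untreated and 261 ± 79.6 in WT, and the treated mice passed the test against neither group (adjusted p = 0.345 and 0.459).

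Glucocorticoid target genes were listed because glucocorticoids also induce metallothioneins. The list was written with earlier results of these data known, so its share of calls is a description only. *Mt1* and *Mt2* did not pass between Lep(ob/ob) and WT mice (edgeR adjusted p = 0.677 and 0.772), and a link was not tested. In Lep(ob/ob) against WT mice, where 9.07% of all genes passed, 6 of 10 rose (*Fkbp5*, *Zbtb16*, *Per1*, *Pdk4*, *Klf9* and *Tsc22d3*) and none fell, and the median log2 fold change of the 10 was 0.61. *Fkbp5*, a chaperone of the glucocorticoid receptor, rose by 1.80 (SE 0.19, edgeR adjusted p = 4.7e-05), with 136 to 242 normalized counts in WT, 353 to 942 in untreated and 590.5 to 1020 in treated mice. *Zbtb16* rose by 2.43 (SE 0.35, adjusted p = 0.000449), *Pdk4* by 1.82 (SE 0.39, adjusted p = 0.00722) and the clock gene *Per1* by 1.77 (SE 0.34, adjusted p = 0.00321). *Tsc22d3* was close to the threshold (adjusted p = 0.0492). Against WT, treated mice showed 4 of these 10 past the threshold, beside 5.57% of all genes, and no gene of the list passed between treated and untreated mice.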

How the data were processed

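RNA was taken from snap-frozen pancreas of 16 mice, and stranded poly(A) libraries were sequenced. Per the submitters' processing notes, the authors used Trim Galore 0.6.7 with cutadapt 3.5 for trimming, then STAR 2.7.9 on mm10. The read counter, strand setting and annotation are not given in the sources used here, so reads of overlapping genes on the other strand could not be separated; *Mt2*, *Gclm* and *Txnrd1* each overlap an annotated gene of the opposite strand, and *Gclm*, *Gsr* and *Txnrd1* one of the same strand. The authors deposited raw counts per gene symbol and a normalized signal that is each raw count over its library's size factor, which was checked on the values and is called normalized count here.

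Raw counts were tested with edgeR 4.0.16 (limma 3.58.1) in R 4.3.3 by the quasi-likelihood test, with TMM normalization, filterByExpr, group and batch in 1 model of all 16 mice, and Benjamini-Hochberg adjustment over 13660 genes, at an adjusted p under 0.05. The study's methods name DESeq2 with that threshold and no covariates, and DESeq2 1.42.0 was an alternative. Log2 CPM used a prior count of 2. The scripts were tested on simulated data. Mice are separate animals by the labels, and no 2 libraries of a group were duplicates (chi-square per gene of 8.09 or more in 37 pairs). Marker scores are mean log2 CPM of each list, and correlations with them are over all 16 mice, without removing group or batch means. Levels per kb used the principal GENCODE vM21 transcript. Of 121 pathway genes 120 were found, 7 by an older symbol. Named outside the 10 genes are up to 4 genes per pathway list with the lowest adjusted p among those past the threshold, and the genes of highest Pearson r; *Mtf1*, *Nfe2l2*, *Keap1*, *Klf9* and *Tsc22d3* were named after their values were seen. The genes and lists were chosen with earlier results of these data known. Some symbols in the tables are turned into dates, and one such row is among the closest patterns of *Mt1* and is not named.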

Additional observations from a re-analysis of the deposited data

Results flagged for a closer look

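*Txnrd1* in untreated Lep(ob/ob) mouse 464 of batch B stood apart from its group. It had 381 normalized counts against 495 to 580 in the other 6 mice, and on log2 values its gap to the nearest mouse was 0.621 of the whole range of the group, above Dixon's 95% critical value for 7 samples, 0.568. This was 1 of 30 sets tested (10 genes in 3 groups), and chance marks about 1 in 20 sets. Without this mouse, the *Txnrd1* log2 difference was 0.33 between Lep(ob/ob) and WT mice and -0.44 between treated and untreated mice. *Gsr* was also lowest in this mouse among the untreated mice, at 200.5 normalized counts, and its cause was not tested.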

How the results depend on the processing

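The call of *Gclc* against WT in untreated mice was lost in batch B alone (0.875, adjusted p = 0.211) and with the beta cell score as covariate (0.649, adjusted p = 0.0511), and that in treated mice in batch B alone (1.317, adjusted p = 0.106). Batch B holds 2 WT mice, all treated mice fall in it, and beta cell markers differ between the groups, so these parts cannot be told apart. In batch B alone, where the fit has 9 mice, edgeR called 0 of the 10 genes and 0.057% of all genes for untreated against WT, and 0 of the 10 and 0.0926% of all genes for treated against WT. Of the 10, 3 and 1 had an unadjusted p under 0.05, as had 16.9% and 9.96% of all genes. Against untreated mice, treated mice gave 0 calls of 10 in every fit except DESeq2 without batch, which gave 3. For untreated against WT, 2 genes were called in batch A alone (*Gclc*, *Gpx3*; 8.68% of all genes), with the macrophage score (*Gclc*, *Hmox1*; 16.5%), with the beta cell score (*Hmox1*, *Srxn1*; 31.4%) and without WT mice 5492 and 5494 (*Gclc*, *Mt2*; 4.29%). For treated against WT, 2 were called with the macrophage score (14.8% of all genes) and 2 with the beta cell score (11.8%), *Gclc* and *Hmox1* in both. Leaving out each mouse in turn gave 1 to 2 calls for untreated against WT, with 2 without untreated mouse 461 (8.3% of all genes) or 464 (10.5%). Over all genes the counts for untreated against WT ran from 8 in batch B alone to 4288 with the beta cell score, against 1239 in the fit of the report; for treated against untreated from 0 with proglumide mice only to 2518 with DESeq2 without batch, against 8; and for treated against WT from 13 in batch B alone to 2320 with DESeq2 without batch, against 761. The causes were not tested. No scaling moved the median of all genes by over 0.1, but the scalings centre that median by design, so this cannot show independence from scaling.

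Leaving out WT mice 5492 and 5494 and leaving out untreated mouse 463 with treated mouse 69 were chosen after seeing the data. The first were picked for their *Mt1* and *Mt2* values, so the resulting 2.146 for *Mt2* (adjusted p = 0.0138) supports nothing. The second left the calls as they were.

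Of the 877 values of single genes under the alternatives, 814 kept direction and side of the threshold, 3 lost and 12 gained a call, and 48 changed sign, none of them with a call. For untreated against WT, log2 values changed sign without batch (*Mt2* -0.083), with DESeq2 without batch (*Mt2* -0.077), in batch A alone (*Mt1* -0.009, *Mt2* -0.386, *Gclm* -0.003), in batch B alone (*Nqo1* 0.215), with the beta cell score (*Mt1* -0.171, *Nqo1* 0.301, *Gclm* -0.219) and without WT mice 5492 and 5494 (*Nqo1* 0.507). For treated against untreated mice they changed with proglumide mice only (*Gpx3* -0.179), with lorglumide mice only (*Gclm* 0.043), without the 4 obese mice of highest adipocyte score (*Hmox1* 0.048, *Gclm* 0.016, *Srxn1* 0.160) and with the macrophage score (*Hmox1* 0.236, *Srxn1* 0.033). For treated against WT they changed with only the groups compared (*Mt1* 0.142, *Mt2* 0.366, *Txnrd1* 0.046), in batch B alone (*Mt1* 0.138, *Mt2* 0.363, *Txnrd1* 0.038), with lorglumide mice only (*Mt1* 0.089, *Hmox1* -0.307, *Gclm* 0.079, *Txnrd1* 0.029), without the 4 obese mice of highest adipocyte score (*Mt1* 0.054, *Gclm* 0.059, *Txnrd1* 0.060), with the adipocyte score (*Hmox1* -0.012), with the beta cell score (*Txnrd1* 0.025) and without WT mice 5492 and 5494 (*Mt1* 0.378, *Mt2* 0.667). For untreated against WT, *Mt2* was 0.014 without WT mouse 58 and 0.851 without WT mouse 5492, and *Mt1* 0.084 without WT mouse 5489 and 0.719 without WT mouse 5492, none of them called. When each mouse was left out in turn, the sign varied for *Nqo1* (-0.314 to 0.131) and *Gclm* (-0.104 to 0.130) of untreated against WT, for *Gpx3* (-0.154 to 0.191, and 0.287 without both untreated mouse 463 and treated mouse 69) of treated against untreated, and for *Mt1* (-0.606 to 0.048), *Hmox1* (-0.244 to 0.356) and *Gclm* (-0.320 to 0.044) of treated against WT.

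No paired analysis was possible because the mice carry individual numbers that no 2 groups share. *Nqo1* had the fewest reads of the 10 genes, 4 to 47 per mouse.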
